A study of Mus musculus with 6 samples.

Results

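The regions described here were the broad accessible domains of the wild-type embryonic mouse retina: peaks of the authors' joint wild-type list that were chosen by their width alone, at least 2000 bp. On chromosomes 1 to 19 the joint list held 102413 peaks, and 2014 of them, 1.97%, met this width. The list held 104991 peaks in all. The assay was ATAC-seq, which uses the transposase Tn5 to place sequencing adapters in DNA that is open. The tissue was retina of C57BL/6 embryos at E14.5, with both retinas of 1 animal in each library. In 3 libraries the animals were SE/SE, homozygous for a mutant shadow enhancer of Atoh7, the transcription factor gene needed for retinal ganglion cells. In the other 3 libraries the animals were Atoh7 +/+, called wild type here. Transposition used about 100000 cells, of which 50000 cell equivalents entered PCR, for 15, 16 and 16 cycles in SE/SE and 17, 18 and 19 cycles in wild type. The cycles are given by genotype and not by library, and PCR cannot be told apart from genotype.

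The embryonic retina at this stage is a sheet of dividing progenitors in which the earliest neurons, ganglion cells above all, are being born. Active promoters and enhancers are bare of nucleosomes over a short stretch, and the usual accessible peak is accordingly narrow. Long accessible stretches are known from CpG-rich promoters of strongly used regulatory genes, from rows of enhancers that lie close together, and from repeated DNA whose reads pile up on an incomplete assembly. A peak in bulk tissue does not separate the number of cells that are open from how open each cell is.

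Start-site sequences are shown for 4 groups of genes that recur below, each at the widest of its domains that held a tabulated start site, beside that of a ganglion cell gene whose joint peak was 1920 bp wide and so was no domain. Each runs 5′ to 3′ from 250 bases before to 50 bases after a RefSeq start site (GRCm38.p6), with every CpG in capitals. The Pax6 sequence lies at chr2:105668646-105668945 on the plus strand. The others lie on the minus strand, Mycn at chr12:12941787-12942086, Jun at chr4:95052173-95052472, Jag1 at chr2:137116471-137116770 and Isl1 at chr13:116309639-116309938.
Pax6: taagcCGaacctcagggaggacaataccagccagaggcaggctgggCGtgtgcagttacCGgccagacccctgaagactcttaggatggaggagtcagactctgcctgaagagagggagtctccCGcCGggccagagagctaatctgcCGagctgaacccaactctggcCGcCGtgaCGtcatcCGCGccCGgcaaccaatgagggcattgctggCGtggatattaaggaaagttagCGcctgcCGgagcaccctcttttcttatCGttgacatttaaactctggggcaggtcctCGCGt
Mycn: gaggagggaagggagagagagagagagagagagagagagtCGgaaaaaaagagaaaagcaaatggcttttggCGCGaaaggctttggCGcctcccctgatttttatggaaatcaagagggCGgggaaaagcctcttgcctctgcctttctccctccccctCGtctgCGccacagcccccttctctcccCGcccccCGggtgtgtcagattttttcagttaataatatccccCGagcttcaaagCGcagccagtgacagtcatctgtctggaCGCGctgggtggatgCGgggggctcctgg
Jun: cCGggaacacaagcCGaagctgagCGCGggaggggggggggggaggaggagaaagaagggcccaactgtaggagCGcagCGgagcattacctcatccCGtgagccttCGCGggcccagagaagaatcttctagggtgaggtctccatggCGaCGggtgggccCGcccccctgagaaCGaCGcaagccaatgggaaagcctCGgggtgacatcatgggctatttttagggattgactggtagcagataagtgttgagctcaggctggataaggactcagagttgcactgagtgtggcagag
Jag1: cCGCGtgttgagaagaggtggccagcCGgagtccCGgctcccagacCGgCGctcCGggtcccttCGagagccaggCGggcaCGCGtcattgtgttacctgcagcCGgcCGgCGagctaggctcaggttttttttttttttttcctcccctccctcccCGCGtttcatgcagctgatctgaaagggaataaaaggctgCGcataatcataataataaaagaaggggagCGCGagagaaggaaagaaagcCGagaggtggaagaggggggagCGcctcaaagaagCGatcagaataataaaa
Isl1: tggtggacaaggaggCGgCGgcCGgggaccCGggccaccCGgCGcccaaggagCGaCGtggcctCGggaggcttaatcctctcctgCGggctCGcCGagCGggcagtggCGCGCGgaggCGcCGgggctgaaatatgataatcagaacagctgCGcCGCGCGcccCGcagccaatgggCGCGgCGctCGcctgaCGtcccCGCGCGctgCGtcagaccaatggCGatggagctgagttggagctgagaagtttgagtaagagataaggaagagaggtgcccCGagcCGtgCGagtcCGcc
The Pax6 window held 18 CpGs, the Mycn window 14, the Jun window 15 and the Jag1 window 22, all inside domains of 4340 to 5399 bp. The Isl1 window held 37 CpGs, more than any of those 4. The window of Pou4f2, another ganglion cell gene without a domain (joint peak of 1732 bp), held 18, inside their range. In these 6 windows the number of CpGs at the start site did not follow the width of the peak.

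The median domain was 2371 bp wide, with quartiles of 2158 and 2766 bp, against a median of 257 bp for all joint wild-type peaks. Of the domains, 351 were 3000 bp or wider, 92 were 4000 bp or wider, 31 were 5000 bp or wider and 5 were 10000 bp or wider. Together they held 5.31 Mb, 11% of the bases under joint wild-type peaks, and 17.7% of the authors' summed signal value. Width chose the domains and the signal value grows with width, so these are descriptions. The narrowest members, at Zfp804a, Ski and Slc4a4, were exactly 2000 bp wide, and the widest peaks left out, such as those at Ngef and Thrb, were 1999 bp wide. The peak upstream of Atoh7 at chr10:63089099-63090927 was also left out: it was 1829 bp wide, stood at rank 2800 by width and had no overlapping peak in the joint SE/SE list.

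Most domains lay at the ends of genes. The nearest base of 1537 domains, 76.3% (95% Clopper-Pearson interval 74.4 to 78.2%, counting error only), was within 1 kb of a protein-coding gene end, against 16.5% of all joint wild-type peaks. A wide peak reaches more bases, and from the midpoint the share was 63.7% of the domains against 15.2% of all peaks. A gene end lay inside 1420 domains, and ends of 2 or more genes inside 223. Another 293 domains of the 2014 lay inside a gene, against 41.9% of all peaks. A further 149, 7.4%, lay between genes within 100 kb of an end, against 27.3% of all peaks, and 35, 1.74%, lay farther out, against 14.2%. The share near a gene end climbed with width, from 6.53% of joint peaks under 500 bp to 22.2, 58.4 and 70.5% in the next width classes (500, 1000 and 1500 bp upward) and 76.8% from 2000 to 2999 bp. It was 74.1% from 3000 bp, so the share was no higher among the widest peaks than among those just over the threshold.

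Off chromosome 18, for which no start sites were used here, 1279 of 1944 domains (65.8%) held a RefSeq protein-coding start site, against 9.43% of the other joint peaks. Start sites of 2 or more genes lay in 140 domains, and 130 of these had starts on both strands. In the 972 domains with a single start site, the domain reached a median of 947.5 bp upstream of it and 1438 bp downstream, and the downstream arm was longer in 690 (71%). The 7618 other peaks with a single start site reached 430 and 646.5 bp, and the downstream arm was longer in 71.8%, so the lean into the gene was not particular to the domains. Promoter windows in domains were richer in CpG: the median observed to expected CpG ratio was 0.819, against 0.766 for windows in other joint peaks and 0.586 for all windows. The GC box GGGCGG, searched on both strands, was present in 76.4% of windows in domains, 66.9% of windows in other joint peaks and 47% of all windows. The letters TATAAA were present in 5.42, 6.13 and 12.7% in the same order, and CCAAT in 36.3, 37.8 and 38.1%. The homeodomain core TAATTA was present in 1.11, 2.5 and 4.48%. These motifs can share bases and each was counted on its own. The median GC of the windows was 67, 61.7 and 57% in the same order. How far GC moves with the motif shares was not tested.

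**Figure D1:**
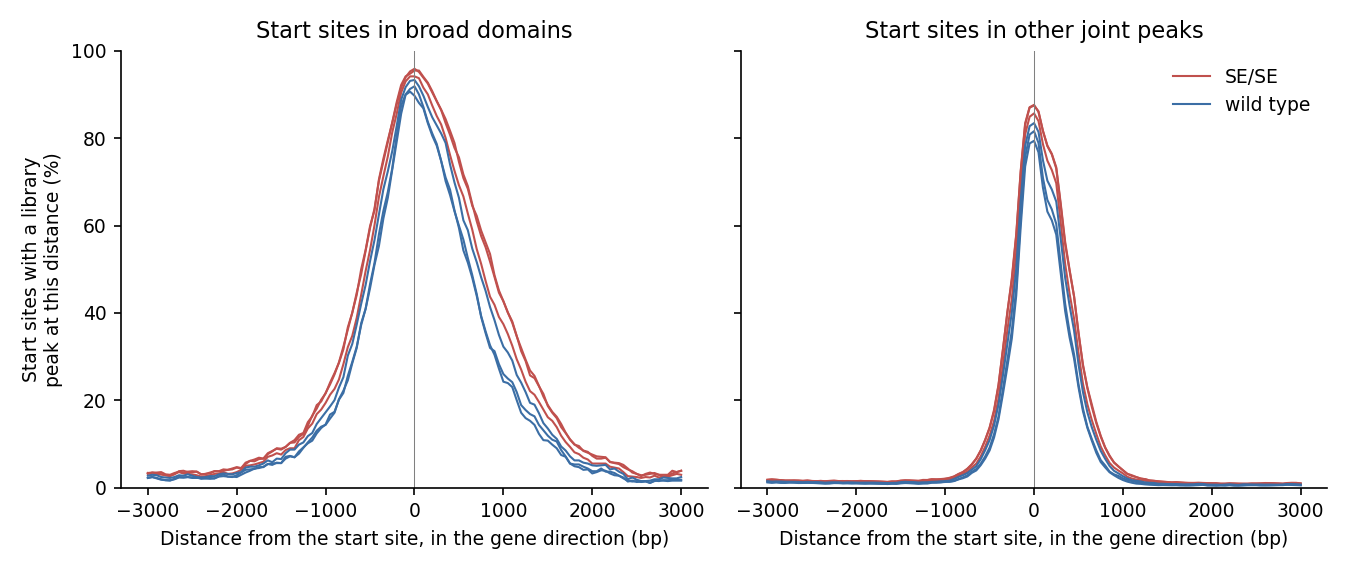
Percentage of start sites with a library peak at each distance from the start site (bp, in the direction of the gene), for start sites in domains (left) and in other joint wild-type peaks (right), with 1 line per library. The SE/SE lines run above the wild-type lines: at 1000 bp downstream in domains the mean was 40.95% in SE/SE and 27.54% in wild type.

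Library peaks around the start sites in domains followed the same shape in all 6 libraries. At the start site itself, the share with a library peak was 95.16% ± 0.9096 for SE/SE (SD, n = 3) and 91.63% ± 1.812 for wild type (SD, n = 3). At 1000 bp downstream the values were 40.95% ± 3.031 in SE/SE and 27.54% ± 4.217 in wild type, and at 1000 bp upstream they were 20.92% ± 1.28 in SE/SE and 15.4% ± 1.632 in wild type. The genotypes did not overlap at 1000 bp downstream or upstream. With 3 libraries against 3, the smallest 2-sided exact permutation p is 0.1, so no test could pass 0.05.

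A domain lay within 1 kb of an end of 1836 of 20665 protein-coding genes, 8.88%. Lists of genes that act in retinal development and in rapid response lay above this share. The highest was that of retinal progenitor genes, with 23 of 34 (67.6%). Immediate early genes had 16 of 26 (61.5%), eye patterning genes 13 of 26 (50%), neurogenic transition genes 11 of 25 (44%) and signalling genes 20 of 48 (41.7%). Chromatin regulators had 14 of 37 (37.8%), amacrine and horizontal cell genes 6 of 21 (28.6%), axon and synapse genes 10 of 38 (26.3%) and cell cycle genes 8 of 32 (25%). Retinal ganglion cell genes had 9 of 45 (20%) and housekeeping genes 4 of 26 (15.4%).

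The lists of other cell types were close to the share of all genes or under it. Bipolar and Muller glia genes had 2 of 16, lens and mesenchyme genes 2 of 18 each, and pigment epithelium genes 1 of 13. The lone domain of the 15 endothelial genes was at Sox17 and that of the 22 photoreceptor genes at Gnat2. No domain lay at the 17 microglia and blood genes or the 39 Hox genes. With the width set at 1500 bp or more, bipolar and Muller glia genes stood at 31.2% and pigment epithelium genes at 30.8%. Photoreceptor genes stood at 22.7%, against 21.9% of all protein-coding genes, and the other lists of this paragraph stayed under that. As a check of the tissue label, 32 of 34 progenitor genes had a gene-end peak in all 6 libraries. So did 10 of 16 bipolar and Muller glia genes, 7 of 13 pigment epithelium genes and 9 of 22 photoreceptor genes, and 5 of 18 lens genes, 3 of 17 microglia and blood genes and 2 of 15 endothelial genes. Genes with a domain were also longer, with a median span of 31904 bp against 17491 bp for all protein-coding genes, and how far gene length moves with the shares was not tested.

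**Figure D2:**
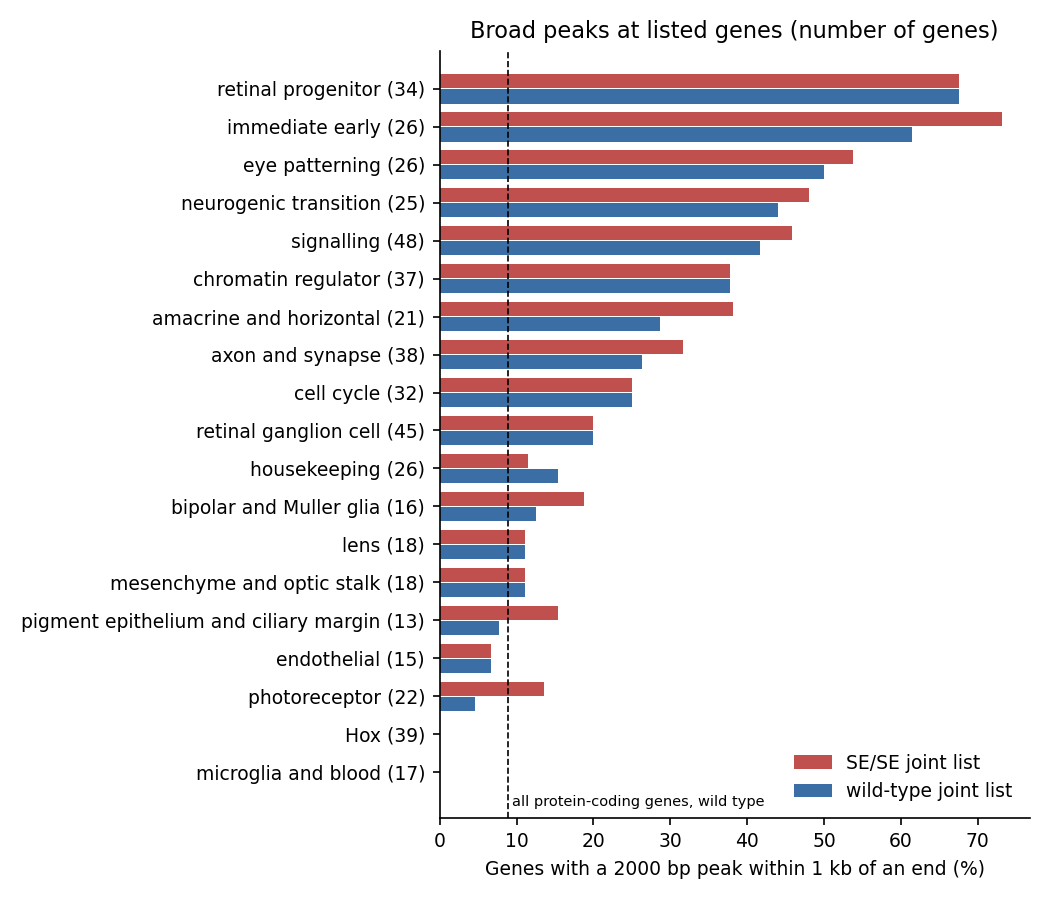
Percentage of the genes of each list (number of genes in brackets) with a peak of 2000 bp or more within 1 kb of a gene end, in the joint SE/SE list and the joint wild-type list; the dashed line marks the 8.88% of all protein-coding genes in wild type. Retinal progenitor genes stood at 67.6% in both lists, and microglia and blood genes and Hox genes had none.

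Among the progenitor genes, the widest domain was that of Six3, a homeobox gene of the eye field, at chr17:85612824-85619028 (6205 bp). Library peaks covered 2443, 2284 and 2569 bp of it in SE/SE and 1932, 2180 and 2073 bp in wild type. Every SE/SE library was above every wild-type library, although the widest joint SE/SE peak there was only 3103 bp wide. Hes1, a Notch target that keeps progenitors undifferentiated, had a domain of 4859 bp at chr16:30062637-30067495. Its covered bases were 2569, 2702 and 2524 in SE/SE and 1966, 2146 and 2038 in wild type, again without overlap. The domain of Notch1, the receptor itself, was 4662 bp wide at chr2:26499994-26504655, with 2698, 2947 and 2936 bp covered in SE/SE and 2080, 2014 and 2174 bp in wild type, without overlap. Covered bases were higher in all SE/SE libraries in this way at 63.5% of all domains and 21.4% of all joint wild-type peaks. As a share of the library's covered bases, the genotypes overlapped at Six3, Hes1 and Notch1. The progenitor genes Sox2, Sox9, Six6, Meis1, Meis2, Pbx3, Nfib, Nr2f1, Nr2e1, Fgf15, Sfrp2, Id1, Id3, Hes5, Zic1, Zic2 and Zic5 had domains too. Rax and Lhx2, homeobox genes of the same progenitors, did not: their widest joint wild-type peaks at a gene end were 1610 and 1028 bp.

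Pax6, the paired-box gene on which eye formation depends, was the only gene of the lists with as many as 5 domains. The widest, at chr2:105666115-105671513, was 5399 bp wide, and a start site lay inside it with 2781 bp upstream and 2617 bp downstream. Library peaks covered 1162, 1760 and 1746 bp in SE/SE and 807, 959 and 778 bp in wild type, without overlap. The other 4 were 3397, 3388, 3341 and 2384 bp wide. The first of these lay upstream of the gene at chr2:105659083-105662479, 6417 bp from its end, and the other 3 lay inside it. Over these 4 together, library peaks covered 6966, 7652 and 7174 bp in SE/SE and 4732, 5564 and 4705 bp in wild type. Each of the 4 was higher in all SE/SE libraries, as were 63.5% of all domains and 21.4% of all joint wild-type peaks. The widest joint SE/SE peaks over these 4 domains were 3404, 3402, 3360 and 2536 bp, each wider than the domain. The domain of 5399 bp was divided over 2 joint SE/SE peaks, the wider of 4713 bp. Ccnd1, the D-type cyclin of retinal progenitors, had 3 domains, and one of them, 2329 bp wide at chr7:144928298-144930626, held no library peak in any library. Otx1, a homeobox gene of the anterior nervous system, also had 3, of 3921, 2052 and 2004 bp.

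In the neurogenic transition, the widest domain was at Mycn, a proliferation gene of the Myc family, at chr12:12938399-12943436 (5038 bp). Library peaks covered 2191, 2671 and 2920 bp in SE/SE and 2266, 1992 and 1707 bp in wild type, so the genotypes overlapped through wild type 1. Onecut1, a homeobox gene of ganglion and horizontal cell precursors, had 3549 bp, with 1035, 1213 and 1256 bp covered in SE/SE and 500, 759 and 408 bp in wild type, without overlap. Neurog2, a proneural factor, had 3433 bp, with 2503, 2624 and 2511 bp covered in SE/SE and 2249, 2378 and 2170 bp in wild type, also without overlap. As a share of the library's covered bases, Onecut1 was higher in all 3 SE/SE libraries and Neurog2 was lower in all 3. The Notch ligand genes Dll1 and Dll4 had domains of 2697 and 2485 bp. Atoh7 itself had none: its widest joint peak at a gene end was 1494 bp in SE/SE and 1176 bp in wild type, and its widest library peaks there were 591 to 603 bp in SE/SE and 516 to 550 bp in wild type.

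The 9 ganglion cell genes with a domain were Foxp1 (3609 bp), Irx5 (3160 bp), Stmn2 (2947 bp), Irx3, Foxp2, Satb1, Nefm, Elavl3 and Dlx1. The ganglion cell factors Pou4f1, Pou4f2 and Isl1 fell short of the width in wild type, and Isl1 passed it in SE/SE. At a width of 1500 bp or more, 23 of the 45 ganglion cell genes (51.1%) were included, against 21.9% of all protein-coding genes. Pou4f1, a POU factor, reached 1762 bp in SE/SE and 1434 bp in wild type, Pou4f2 reached 1727 and 1732 bp, and Isl1, a LIM homeobox factor, reached 2205 and 1920 bp in the same order. For Foxp1, a forkhead repressor, library peaks covered 2905, 3066 and 2782 bp in SE/SE and 2297, 2408 and 2336 bp in wild type. For Stmn2, a neuronal microtubule regulator, they covered 1780, 1836 and 1815 bp in SE/SE and 1676, 1754 and 1494 bp in wild type. Neither gene's libraries overlapped between genotypes, and 7 of the 9 ganglion cell domains were higher in all 3 SE/SE libraries, where the share over all domains was 63.5% and over all joint peaks 21.4%. As a share of the library's covered bases, 1 of the 9 was higher in SE/SE and 3 were lower, Stmn2 among them.

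The immediate early genes, which are transcribed within minutes of a stimulus, included Myc at chr15:61983135-61988426 (5292 bp), Jun at chr4:95049729-95054068 (4340 bp) and Fos at chr12:85471718-85475352 (3635 bp). The Myc domain had 3770, 3835 and 3810 bp covered in SE/SE and 2967, 3365 and 3163 bp in wild type. The Jun domain had 3922, 4107 and 4076 bp covered in SE/SE and 3596, 3740 and 3579 bp in wild type. The genotypes did not overlap at either. Fos had 1592, 1694 and 1624 bp covered in SE/SE and 1193, 1475 and 1364 bp in wild type, without overlap. As a share of the library's covered bases, Jun was lower in all 3 SE/SE libraries, while the genotypes overlapped at Myc and Fos. Egr1, Jund and Egr2 had domains of 3689, 3683 and 2918 bp.

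Signalling genes with a domain were mostly pathway transcription factors, receptors and feedback inhibitors. Jag1, a Notch ligand gene, had a domain at chr2:137113544-137118077 of 4534 bp, with 3042, 2710 and 3194 bp covered in SE/SE and 2495, 2574 and 2560 bp in wild type, without overlap. Fzd5, a Wnt receptor gene of the eye field, had 4510 bp, with 2629, 3037 and 2935 bp covered in SE/SE and 2213, 2267 and 2233 bp in wild type, again without overlap. Fzd8, a further Wnt receptor gene, had 4688 bp. The Hedgehog effectors Gli1, Gli3 and Gli2 had 4038, 3314 and 2604 bp, and the Ras pathway inhibitors Dusp6, Spry2 and Spry4 had 3996, 3586 and 3047 bp. Among ligand genes, Fgf9 and Fgf3 had 2221 and 2133 bp. Shh and Fgf8 had no domain, with widest joint wild-type peaks of 199 and 1132 bp.

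Among eye patterning genes, domains lay at the ephrin gene Efna5 (5409 bp), which guides retinal axons, at Tbx2 (4707 bp), a dorsal T-box gene, at the dorsal ephrin gene Efnb2 (3828 bp), and at the temporal forkhead gene Foxd1 (2457 bp). Library peaks covered 3974, 4366 and 4318 bp of the Efna5 domain in SE/SE and 3435, 4033 and 3557 bp in wild type, and the genotypes overlapped through SE/SE 1 and wild type 2. Among chromatin regulators the widest was at Brd2, a bromodomain reader of acetylated histones, with 5308 bp. Its covered bases were 3131, 3461 and 3718 in SE/SE and 2986, 3159 and 3219 in wild type, which overlapped. Kmt2a, a histone H3 lysine methyltransferase gene, had 3641 bp. Among cell cycle genes Ccnd2 had the widest, at 4421 bp, of which library peaks covered only 286, 403 and 701 bp in SE/SE and 157, 278 and 133 bp in wild type.

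Families of genes were picked for description after their domains had been seen, so their shares are a description only. All 6 genes of the sine oculis homeobox family had a domain, with Six3 the widest and Six2 the narrowest at 2019 bp. So did all 4 Zic genes, with Zic1 and Zic4 sharing 1 domain of 3087 bp. Of 10 Frizzled receptor genes 7 had a domain, of 9 Hes and Hey repressor genes 6, of 16 Klf genes 9, of 18 Sox genes 8 and of 21 Eph receptor and ephrin genes 9. Among the protocadherins outside the clusters, which are adhesion molecules of neurons, Pcdh7 had a domain of 7222 bp and Pcdh17 one of 6298 bp, both wider than that of Six3. Library peaks covered 5063, 5272 and 5340 bp of the Pcdh7 domain in SE/SE and 4063, 4759 and 3712 bp in wild type, without overlap. As a share of the library's covered bases, the Pcdh7 domain was lower in all 3 SE/SE libraries. None of the 8 Lhx genes, the 49 keratin genes, the 1100 olfactory receptor genes or the 352 vomeronasal receptor genes had one, and 3 of 76 cytosolic ribosomal protein genes (3.95%) did.

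Some domains covered whole small genes. The histone genes that are used during DNA replication, which are short and packed in clusters, had a domain in 28 of 64 cases (43.8%), shared among 11 domains of 2007 to 3735 bp. Of these 11 domains, 5 were higher in covered bases in all 3 SE/SE libraries and 0 were lower. The share higher was 63.5% over all domains and 21.4% over all joint wild-type peaks. The domain over H2ac13, H2bc13 and H3c10 at chr13:21714824-21718261 was 3438 bp wide and held 6 gene ends. Library peaks covered 1811, 1847 and 2074 bp of it in SE/SE and 1645, 1683 and 1645 bp in wild type, without overlap. By contrast, the domain over H2ac23, H2bc23 and H4c17 had 2303, 2325 and 2356 bp covered in SE/SE and 2298, 2296 and 2061 bp in wild type. Its SE/SE values lay above the wild-type ones by as little as 5 bp. As a share of the library's covered bases, both of these histone domains were lower in all 3 SE/SE libraries. Tallied by RNA class, 444 domains overlapped a long noncoding RNA gene, 21 a tRNA gene and 13 an rRNA gene. Overlap of any base grows with the width of a peak, so these counts were not set against those of narrower peaks.

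Whole miRNA genes lay inside 28 domains, which held 31 of the 1136 miRNA genes on these chromosomes. Mature miRNAs known from neural cells are shown with their seeds (bases 2 to 8) in capitals, from RefSeq (GRCm38.p6). They are let-7e and miR-99b from a domain at Spaca6 and miR-219a from the domain at Ring1 and H2-Ke6.
let-7e-5p: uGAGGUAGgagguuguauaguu
miR-99b-5p: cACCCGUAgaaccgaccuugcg
miR-219a-5p: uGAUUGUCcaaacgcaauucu
The 3 seeds differ from each other. The Spaca6 domain, chr17:17825831-17830469, was 4639 bp wide, and library peaks covered 3208, 3243 and 3244 bp in SE/SE and 2793, 2846 and 2928 bp in wild type, without overlap. The Mir219a-1 domain, 2227 bp wide, had 1045, 1275 and 1453 bp covered in SE/SE and 811, 858 and 700 bp in wild type, also without overlap. Copies of the brain miRNA miR-124 lay in domains at Mir124a-2 (2806 bp) and Mir124a-3 (2496 bp). The Mir124a-2 domain was the last of 3 within 11 kb on chromosome 3, more than 100 kb from any protein-coding gene end.

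Many of the widest domains, among them most of the 12 widest, lay in repeated or poorly annotated DNA. The widest of all, chr9:2999951-3038357, was 38407 bp wide, had no protein-coding gene within 100 kb and was as wide in the joint SE/SE list. Library peaks covered nearly all of it, 37222, 36494 and 36684 bp in SE/SE and 37225, 36931 and 37313 bp in wild type, which overlapped. The second, chr6:47650435-47687053 (36619 bp), held predicted genes in a row and overlapped the annotated rRNA gene Rn4.5s. The third lay inside Sfi1, a centrosome gene, at chr11:3184119-3200091 (15973 bp), with 9034, 6637 and 4904 bp covered in SE/SE and 9749, 8880 and 10956 bp in wild type, which overlapped. A peak of 5933 bp at chr17:39842947-39848879 was covered from end to end in all 6 libraries. It overlapped the long noncoding RNA gene AY036118 and the pseudogene Rn18s-rs5. On chromosome 8, 12 domains of 2553 to 3804 bp stood in a row between 123540160 and 123622998 beyond Gas8. Over these, library peaks covered 6982, 7881 and 7392 bp in SE/SE and 9605, 7975 and 6171 bp in wild type, which overlapped, and 0 of the 12 were separated between genotypes.

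Most domains were found in every library, as 1 peak or as several narrower ones. A library had 2 or more peaks in 54 to 56.2% of the domains in SE/SE and in 52.3 to 56.3% in wild type. A library peak overlapped the domain in all 6 libraries for 1962 domains (97.4%), against 21.8% of all joint wild-type peaks. Joint peaks of 1500 to 1999 bp were close to this, at 96.1%, and those of 1000 to 1499 bp stood at 89.1%. Peaks in only some libraries were seen in 36 domains and none in 16. The mean number of library peaks per domain was 1.863, 1.821 and 1.841 in SE/SE and 1.869, 1.865 and 1.777 in wild type, with means of 1.842 ± 0.021 for SE/SE (SD, n = 3) and 1.837 ± 0.052 for wild type (SD, n = 3). The libraries of both genotypes overlapped in this count. With equal numbers of peaks taken from each library the difference, SE/SE minus wild type, was -0.2294 peaks per domain. In 442 domains every library had exactly 1 peak, and in 680 every library had 2 or more. Averaged over the libraries of a genotype, 600 domains held more peaks in SE/SE, 614 fewer and 800 the same number.

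Few domains were that wide in a library of their own: a library peak of 2000 bp or more lay in 165, 241 and 252 domains in SE/SE and in 101, 134 and 101 in wild type. The median of the widest library peak per domain was 1193, 1331 and 1318 bp in SE/SE and 1017, 1126 and 1011 bp in wild type. Neither measure overlapped between genotypes. Library peaks covered on average 57.89, 62.72 and 62.78% of a domain in SE/SE and 49.82, 54.63 and 48.52% in wild type, with means of 61.13% ± 2.806 for SE/SE (SD, n = 3) and 50.99% ± 3.219 for wild type (SD, n = 3). The difference of 10.14 percentage points was larger than the spread between replicates, and the ratio of the means was 1.199. The same ratio was 1.225 over joint peaks of 1000 to 1999 bp and 1.672 over all joint peaks other than the domains.

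The libraries themselves differed in the same direction, with 38027 to 43066 peaks in SE/SE and 27029 to 33820 in wild type on these chromosomes. Their read depth is unknown, and its part in the covered bases was not tested. As a share of all bases a library's peaks covered, the domains held 18.11, 17.48 and 17.09% in SE/SE and 20.03, 19.15 and 21.06% in wild type, so on this scale they were lower in SE/SE. The bases covered per library came to 16.91 to 19.39 Mb in SE/SE and 12.25 to 15.11 Mb in wild type.

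**Figure D3:**
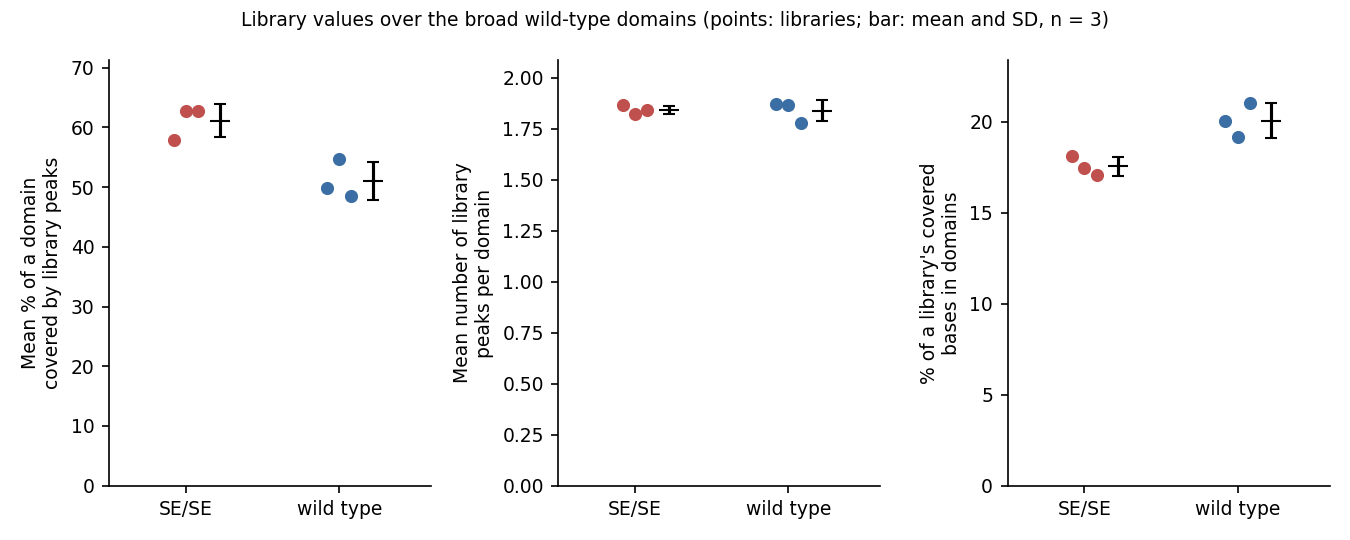
Values of each library over the 2014 domains: mean percentage of a domain covered by library peaks, mean number of library peaks per domain, and percentage of the library's covered bases that lay in domains. Points are libraries and bars the mean and SD (n = 3). Coverage was higher in SE/SE (61.13% against 50.99%), peak number overlapped (1.842 against 1.837) and the share of the library lower in SE/SE (17.56% against 20.08%).

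The joint SE/SE list held nearly all of the domains at similar width. The widest overlapping SE/SE peak was 2000 bp or more for 1868 domains (92.8%), from 1000 to 1999 bp for 139 and under 1000 bp for 6. For 1 domain there was none, where 93.8% of all joint wild-type peaks had an overlapping SE/SE peak. That domain, at Eppk1 (chr15:76102614-76105062, 2449 bp), held no library peak in either genotype. The ratio of the SE/SE width to the domain width had a median of 1.01 and lay from 0.832 to 1.23 between the 5th and 95th percentiles. It was within 0.9 to 1.1 for 1614 domains (80.1%). The SE/SE peak was wider for 1342, equal for 20 and narrower for 652, the last including the 1 with no peak. Each joint list is a single value per genotype, with no replicate. Choosing the domains in wild type biases the comparison towards narrower SE/SE peaks. With the choice turned round, 2387 of 117983 joint SE/SE peaks were 2000 bp or wider, and 1877 of them (78.6%) overlapped a wild-type peak of that width.

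At some domains the joint widths differed widely. The SE/SE peak was at least 2 times as wide for 5 domains, led by a domain inside Gse1, a gene of a histone deacetylase complex, with 5292 bp in SE/SE and 2272 bp in wild type. In the libraries, the peaks inside that Gse1 domain covered 1534, 1665 and 1820 bp in SE/SE and 1076, 1252 and 699 bp in wild type, without overlap. At Ndufa4l2, a mitochondrial gene, 1 SE/SE peak of 6235 bp stood over wild-type domains of 2792 and 3145 bp. The opposite held for 24 domains, whose widest SE/SE peak was at most 0.5 of their width. Apart from width, 162 domains overlapped 2 or more SE/SE peaks. Id1, a repressor of helix-loop-helix factors, had 1423 bp in SE/SE against 2896 bp in wild type, and yet its covered bases were 1324, 1392 and 1400 in SE/SE and 1003, 1149 and 1008 in wild type. At Id1 the joint width was thus lower in SE/SE while the library cover was higher.

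**Figure D4:**
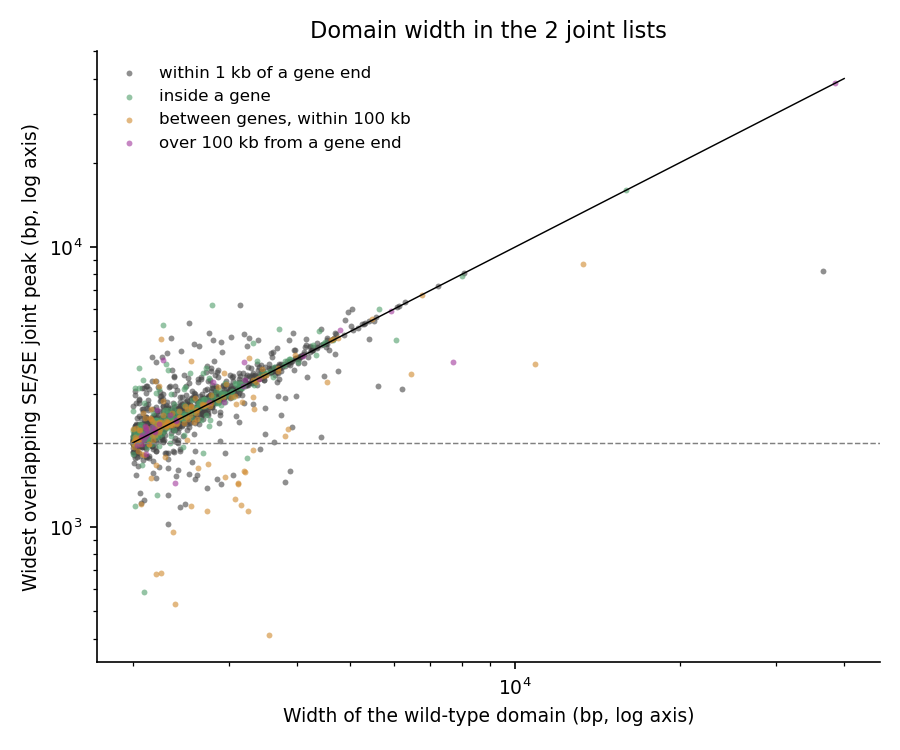
Width of the widest overlapping joint SE/SE peak against the width of each wild-type domain (bp, log axes), coloured by position relative to protein-coding genes; the solid line marks equal width and the dashed line 2000 bp. The Eppk1 domain, with no SE/SE peak, cannot be drawn on a log axis. Points lie along the line, with a median ratio of 1.01.

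Covered bases were higher in all 3 SE/SE libraries than in all 3 wild-type libraries for 1279 domains, 63.5%, against 21.4% of all joint wild-type peaks. Most joint peaks hold no library peak, and among the 40461 that held any, the share was 54.3%. It was 59.8% in the next narrower class, 1500 to 1999 bp, so the domains stood little above peaks of nearly their width. Covered bases were lower in all SE/SE libraries for 13 domains, 0.645%, against 0.0625% of all joint wild-type peaks. This share was 0.152% from 1500 to 1999 bp, 0.18% from 2000 to 2999 bp and 2.85% from 3000 bp. Domains under 3000 bp thus stood close to the next narrower class. Without wild type 2 the count of lower domains was 20, but leaving out a library can only keep or raise such a count. As a share of each library's covered bases the direction turned: 148 domains (7.35%) were higher in all SE/SE libraries, against 6.26% of all joint peaks, and 959 (47.6%) lower, against 9.21%. The share lower on this scale was 52.4% from 1500 to 1999 bp and 41.1% from 1000 to 1499 bp, so it was not particular to the domains. By position, the first count held 65.1% of domains at gene ends, 64.8% of those inside genes, 46.3% of those between genes and 54.3% of those over 100 kb away. For the domains at the listed genes it was 109 of 148 (73.6%) and none was lower in covered bases, but as a share of the library 17 were higher and 55 lower.

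The 6 largest differences in the higher direction were at Pcdh17, Sox21, Erbb4, Foxl2 and Pou3f2, and between genes on chromosome 10. Pcdh17 had 3987, 4795 and 4915 bp covered in SE/SE and 2973, 3781 and 2530 bp in wild type. Sox21, a Sox repressor gene, had a domain of 2958 bp at chr14:118234575-118237532 with 1149, 2088 and 2175 bp covered in SE/SE and 316, 848 and 0 bp in wild type. Wild type 3 held no peak there, and SE/SE 1 lay nearest to wild type. Foxl2, a forkhead gene, had 1108, 1709 and 1082 bp covered in SE/SE and 128, 121 and 0 bp in wild type. Erbb4, a neuregulin receptor gene, had 2755, 3070 and 2923 bp covered in SE/SE and 1523, 2055 and 1508 bp in wild type. Pou3f2, a neural POU factor gene, had a domain of 4080 bp with 3453, 3665 and 3630 bp covered in SE/SE and 2319, 2572 and 2359 bp in wild type. The domain between genes, chr10:7390383-7393828, lay 51045 bp from the nearest protein-coding gene, Ulbp1, and had 1484, 2062 and 1931 bp covered in SE/SE and 715, 884 and 450 bp in wild type. All 6 were taken from the domains without overlap between genotypes, so their separation follows from the choice. As a share of the library's covered bases, Sox21, Erbb4, Foxl2 and the chromosome 10 domain were higher in all SE/SE libraries. On that scale the genotypes overlapped at Pcdh17 and Pou3f2. The joint widths lay closer together, with 6349 bp in SE/SE and 6298 bp in wild type at Pcdh17, and 3319 bp in SE/SE and 2958 bp in wild type at Sox21.

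The 13 domains with lower cover in SE/SE were of another kind: 10 were 3000 bp or wider, and most were named for predicted genes. Of these, 4 lay in the chromosome 6 row around Gm40363. The widest of them, chr6:47650435-47687053, had 14673, 15803 and 15194 bp covered in SE/SE and 18748, 16728 and 17794 bp in wild type, and its widest joint SE/SE peak was 8225 bp. A domain inside Tmem267, a transmembrane protein gene, had 5910, 5560 and 5781 bp covered in SE/SE and 6204, 6016 and 6906 bp in wild type. The domain at Duxf3, a repeated double homeobox gene, had 1484, 1867 and 1296 bp covered in SE/SE and 2100, 2122 and 2232 bp in wild type. Counts over repeated copies depend on how the authors placed reads that match several places; no source used here says.

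One of the 13 stood apart. The domain at chr9:121929444-121931964, 2521 bp wide and 13139 bp from the nearest protein-coding gene, Cyp8b1, had a library peak in every wild-type library and in no SE/SE library. It had 0, 0 and 0 bp covered in SE/SE and 797, 774 and 1296 bp in wild type. The joint SE/SE list nevertheless held a peak of 2428 bp over it. The authors' −log10 p in the joint wild-type list was 10.884.

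**Figure D5:**
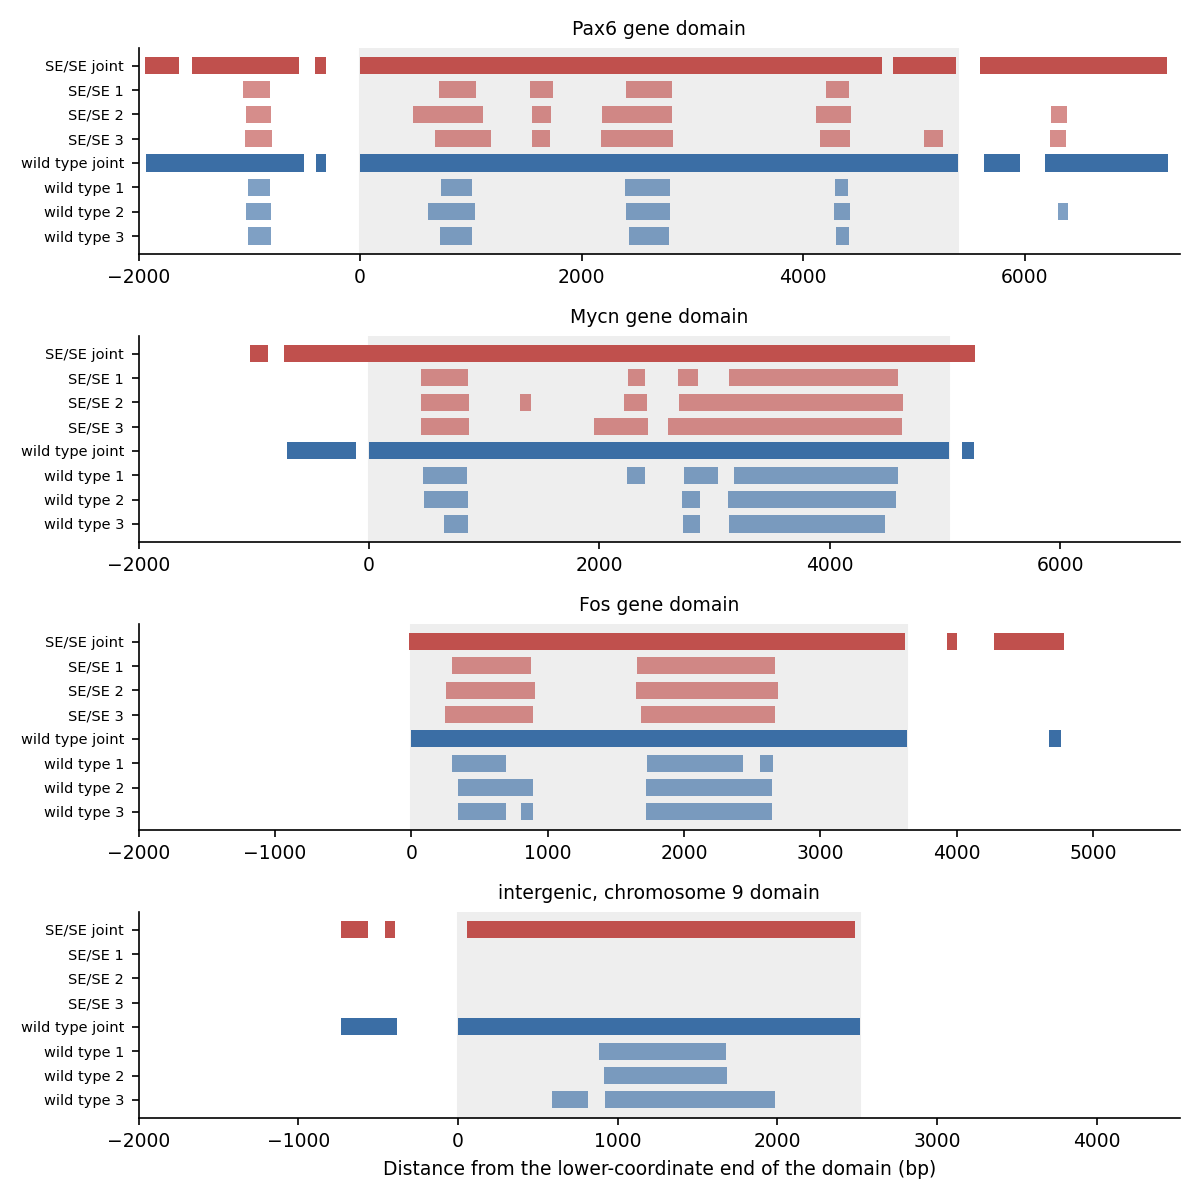
Joint and library peaks over 4 domains, with the domain shaded and distance in bp from its lower-coordinate end. Pax6, Mycn and Fos hold several library peaks in each library inside 1 joint wild-type peak, with more bases covered in SE/SE at Pax6 and Fos. The chromosome 9 domain near Cyp8b1 has library peaks in the wild-type libraries only, covering 774 to 1296 bp.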

How the data were processed

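Open chromatin was profiled by ATAC-seq in 3 SE/SE and 3 wild-type retinal libraries. Tools listed in the submitters' processing notes, with no roles, are Genrich 0.5, BWA, cutadapt, limma and bedtools 2.27.0, and the build is GRCm38 (mm10). The authors deposited 8 narrowPeak lists, 1 per library and 1 joint list per genotype; no source used here says how libraries were combined. The deposited columns give, per peak, a score, the signal and −log10 of p and q. The deposited score was 1000 times signal over width, capped at 1000, within 1 for 100% of peaks, and signal was used only within a list. No read counts were used here, so library depth is unknown.

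Domains were joint wild-type peaks of 2000 bp or more on chromosomes 1 to 19. Positions count from 1. Gene ends were those of protein-coding genes in a RefSeq table of GRCm38.p6, and start sites came from RefSeq promoter sequences. Domains at several gene ends carry all their names, and others that of the host or nearest gene within 100 kb. Peaks overlapped from 1 bp. Bases of each joint peak covered by library peaks were compared between libraries, and a difference was counted where all 3 libraries of a genotype lay beyond all 3 of the other. Python 3.11.15, pandas 2.3.3 and numpy 2.4.6 were used, and the interval and counting steps were tested on simulated data. The members, the 19 gene lists and the named domains (the extremes of each measure and the widest per list) were chosen with earlier results of these data known. The gene families were chosen after their values were seen. The alternatives tried were other widths, distances, overlaps and annotations, the SE/SE list, joined peaks, a signal minimum, equal peak numbers, library shares, and leaving out each library. Values of a few listed genes are not reported here.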

Additional observations from a re-analysis of the deposited data

How the results depend on the processing

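Of 60 alternatives for the main values, 41 stayed within the spread between replicates, the 95% interval of a share or 1.5 times a count, as did 29 of 57 for the gene lists. A width of 1500 bp gave 5298 domains and 3000 bp gave 351, with 72.73 and 74.07% within 1 kb of a gene end, 42.66 and 96.01% with a joint SE/SE peak of 2000 bp, 3243 and 235 domains higher in SE/SE, and 238 and 51 list genes. The gene-end share was 63.65% from the midpoint, 83.37% within 5 kb and 84.66% with all annotated genes. Chosen in the SE/SE list, 78.63% had a counterpart of that width. The difference in peaks per domain, SE/SE minus wild type, was 0.004469; it was 0.1006 over peaks of signal 100 or more and -0.2294 with equal peak numbers per library, and ran from -0.02582 to 0.02061 with a library left out. With equal peak numbers 1128 domains (56%) were still higher in SE/SE, against 14.7% of all joint peaks. As a share of the library, 148 were higher and 959 lower. Leaving out a library gave 1299 to 1724 higher and 14 to 20 lower, with 20 without wild type 2. Leaving out a library can only keep or raise both counts. These alternatives are among the 60 and could not have lowered them. Depth is unknown, so no limit of detection could be set. No paired analysis was possible because the values come from no model and replicate numbers name separate animals.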
